A study of Drosophila melanogaster with 42 samples.

Results

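A set of 10 genes, of the 17208 in the deposited table, is described here. The genes l(2)gl, dlg1, scrib, cora, Nrx-IV, Nrg, kune, sinu, vari and pyd, which build the basolateral domain and the junctions of fly epithelial cells, were followed by symbol through all 42 libraries. All 10 were found and all 10 passed the filter on low counts in every model. The libraries were made from total RNA of wing imaginal discs, the larval epithelia that form the wing, dissected from third-instar Drosophila melanogaster. They hold WT (w1118.csvd111 in the library names) and mutants of fat (ft), a giant cadherin upstream of Hippo signalling and planar cell polarity. The NovaSeq X Plus was used for WT (n = 2), Fd5-5 (n = 2), the deletions delta HpoC (n = 5), delta HpoN+PH (n = 4) and delta PCP (n = 5) of functional domains, and delta D (n = 3) of a conserved region. The NovaSeq 6000 was used for a second set of WT (n = 3) and for deletions of the other conserved regions: 4 libraries each of delta A, delta B and delta E, and 3 each of delta C and delta F. Each mutant was therefore set against the WT of its own sequencer. Fd5-5 is read as the fat null only because every other mutant label names a deletion. The labels give no age beyond the larval stage, no zygosity and no number of discs, and do not say that replicates came from separate animals, so p-values measure the spread between these libraries, which may be technical.

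In fly epithelia the septate junction lies basal to the adherens junction and closes the space between cells, as the tight junction does in vertebrates. The scaffold proteins Lethal (2) giant larvae, Discs large and Scribble define the basolateral side of the cell, and discs that lack any of them lose their layered form and overgrow as tumours. Coracle, Neurexin IV, Neuroglian, Varicose and the claudins Kune-kune and Sinuous are structural parts of the pleated septate junction, whereas Polychaetoid, the fly ZO-1 homologue, sits mainly at the adherens junction.

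The genes differ widely in size, and positions are those of genome release 6 (dm6). Of the scaffold genes, l(2)gl (FBgn0002121) lies on chromosome arm 2L from 9839 to 21376 with a longest transcript of 5528 bases. The gene dlg1 (FBgn0001624) lies on X from 11369665 to 11409776 with 7249 bases, and scrib (FBgn0263289) on 3R from 26536350 to 26604051 with 9438 bases. Among the structural genes, cora (FBgn0010434) lies on 2R from 19229063 to 19243751 with 5899 bases, Nrx-IV (FBgn0013997) on 3L from 12146519 to 12156990 with 4940 bases, Nrg (FBgn0264975) on X from 8517373 to 8555170 with 7386 bases and vari (FBgn0250785) on 2L from 20788662 to 20797042 with 2717 bases. The claudin genes are the shortest: kune (FBgn0033032) on 2R from 5671741 to 5672800 has 1060 bases and sinu (FBgn0010894) on 3L from 5559470 to 5561598 has 2065 bases. The gene pyd (FBgn0262614) spans 3R from 8827068 to 8931896, with 8533 bases. Nrx-IV overlaps CG32099 on its own strand, and scrib, Nrg, vari and pyd overlap other genes on the opposite strand. The sources used here do not say whether counting used strand, so reads in these overlaps could belong to either gene.

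Libraries differed in a way that the genotype labels do not explain. Counts on the 46 symbols containing rRNA made up 5.11% to 17.4% of the total in 21 libraries and 0.792% to 1.68% in the other 21, with none between, and 3% is used here as the border. Both WT libraries of the X Plus lay above 3% and all 3 WT libraries of the 6000 below it. Every library of delta F, delta C and delta A lay above it, and every library of Fd5-5 and delta D below. The labels HpoC (1 and 2 below, 3 to 5 above), HpoN+PH (1 above), PCP (5 above), delta B (4 below) and delta E (4 above) were split. Total counts ran from 19538216 to 48392408. The targeted gene ft was at 328 to 371 CPM (counts scaled to library size) in WT of the X Plus and at 464 to 677 in WT of the 6000. It was at 592 to 691 CPM in Fd5-5, and over all libraries of the mutants it ran from 220 to 767 CPM, a range that holds both WT sets. Inside the libraries above 3%, ft was lower than in WT in HpoC (222 to 243 CPM), HpoN+PH (243) and delta B (242 to 286). The same held in delta C (243 to 283 CPM), delta E (220) and delta F (222 to 259). Delta A (279 to 511 CPM) and PCP (353) overlapped WT. Below 3%, delta D (694.5 to 767 CPM) lay above WT and delta B (366) below it, and the others overlapped it. The summed level of 5 wing disc markers was 680 to 1245 CPM above 3% and 1627 to 2475 CPM below it. The gut genes of the smooth septate junction summed to at most 18.8 CPM in any library. Markers of other tissues varied: 4 muscle genes summed to 518 to 970 CPM in WT of the X Plus and 11.4 to 24.1 CPM in WT of the 6000, and 3 fat body genes to 10.3 to 15.2 and 6.42 to 14.9 CPM there but to as much as 6766 CPM in delta A and 11220 CPM in PCP. The mitochondrial share of counts was 0.776% to 2.73% above 3% rRNA and 0.112% to 1.05% below. Their part in the results was not tested.

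All 10 genes were well expressed, and 8 of them had levels that did not overlap between the libraries above and below 3% rRNA, beside 22.6% of all 11294 genes tested. Of the 8, 7 were lower above 3%, as were 12.1% of all genes, and 1 was higher, as were 10.4%. The scaffold genes differed most. The level of dlg1 had a lowest, median and highest value of 365, 464 and 535 CPM in the 21 libraries below 3% and of 41.9, 47.98 and 79.8 CPM in the 21 above. For scrib the same values were 435, 590 and 938 CPM below 3%, and 51.9, 99.6 and 233 CPM above. For l(2)gl they were 409, 661 and 885 CPM below 3%, and 66.1, 151 and 283 CPM above. Each of these 3 genes was thus lower in every library above 3% than in any library below it.

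The structural genes and pyd moved the same way by smaller amounts. Nrx-IV, a transmembrane neurexin, was at 776 to 995 CPM below 3% and at 143 to 507 CPM above. The FERM-domain scaffold gene cora was at 637 to 945 CPM below and 152 to 560 CPM above, and pyd at 428 to 683 CPM below and 111 to 295 CPM above. The gene vari, which encodes a membrane-associated guanylate kinase, was at 195 to 280 CPM below and 131 to 190 CPM above. The ranges of Nrg, a cell adhesion molecule of the immunoglobulin family, overlapped, from 534 to 898 CPM below and 273 to 543 CPM above.

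The claudin genes did not follow the others. The level of kune was higher above 3%, at 145 to 264 CPM against 94.6 to 127 CPM below. The level of sinu was much the same in both, at 232 to 326 CPM above and 227 to 323 CPM below. The ratio of dlg1 to kune within a library ran from 0.169 to 0.410 above 3% and from 2.99 to 5.60 below. In bulk tissue, fewer cells of a type and less RNA per cell cannot be told apart.

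**Figure D1:**
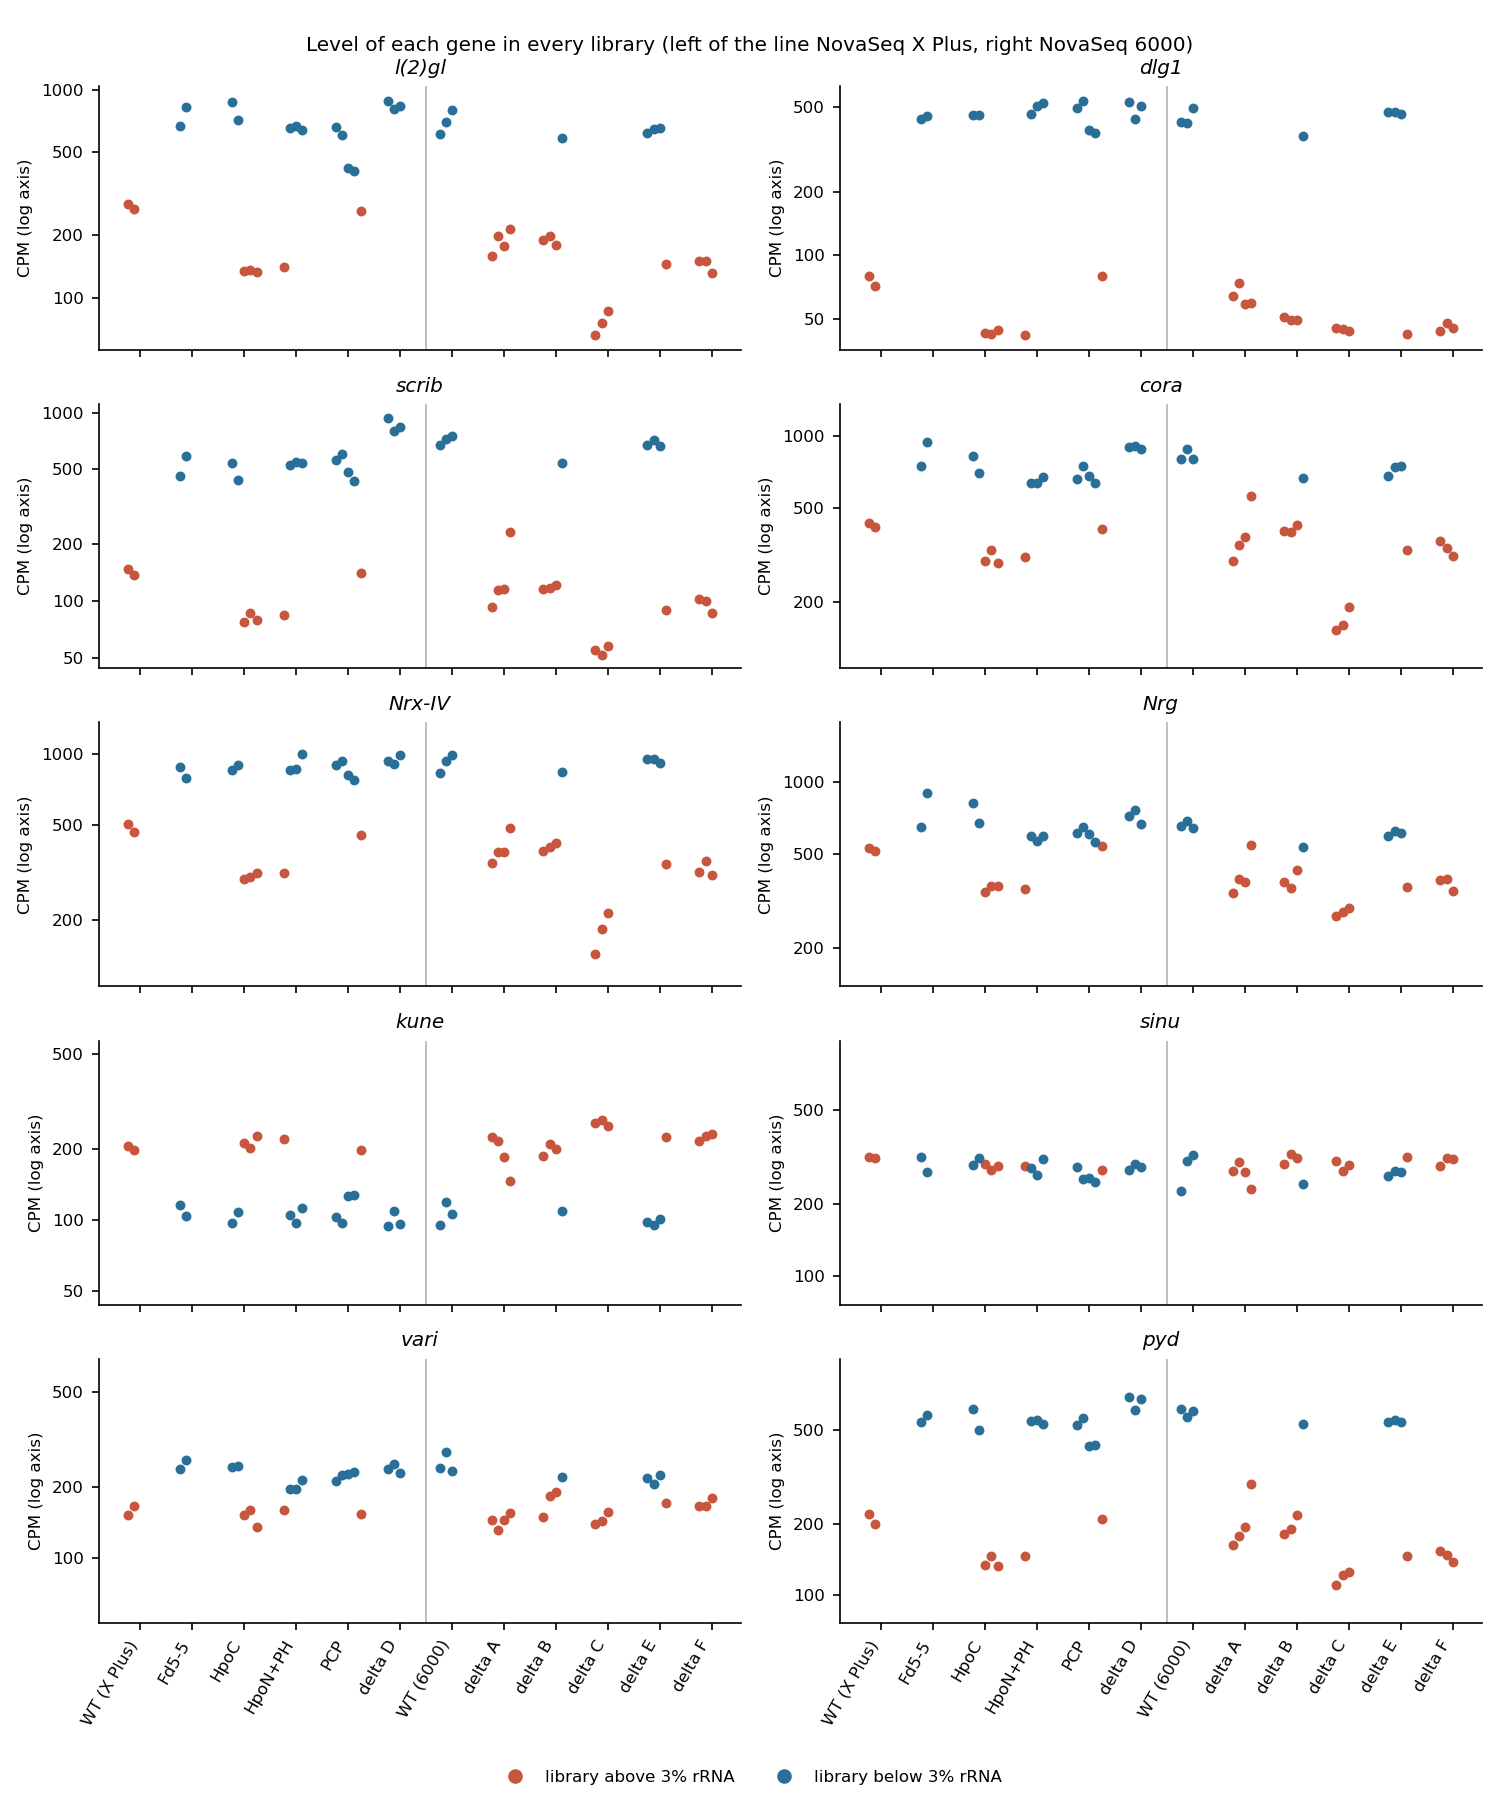
Level (CPM, log axis) of each of the 10 genes in every library, by group, with libraries above 3% rRNA in red and below in blue; the vertical line parts the sequencers. For 8 genes no red point reaches the blue range, whatever the label: dlg1 lies at 41.9 to 79.8 CPM in red and 365 to 535 CPM in blue.

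Scaled to the longest transcript, the order of the genes also depended on the class. Below 3%, Nrx-IV had the highest mean level with 181 CPM per kilobase, before sinu with 136, cora with 128 and l(2)gl with 123, and dlg1 was the lowest with 63.8. Above 3%, kune led with 201 CPM per kilobase before sinu with 143, and dlg1 was again the lowest with 7.37.

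Within the X Plus libraries, genotype alone left the genes without a call in most mutants. In edgeR's quasi-likelihood test, with an adjusted p under 0.05 as the threshold (Benjamini and Hochberg over all genes), none of the 10 was called in Fd5-5, where 4.47% of all genes were called. None was called in HpoC (3.82% of all genes), in HpoN+PH (4.84%) or in PCP (3.61%). Unadjusted p fell under 0.05 for 2 of the genes in Fd5-5 and for 0 in the other 3 mutants, and DESeq2's Wald test called 0 in each of the 4. With only the groups compared in the model, 9 of the 10 were called in Fd5-5 and 0 in the other 3. Without the 6 libraries that lie in the smaller class of their label, a choice made after the values were seen, 9 were called in Fd5-5, 9 in PCP, 8 in HpoN+PH and 7 in HpoC. In that fit Fd5-5, PCP and HpoN+PH lay wholly below 3% rRNA and WT above, so genotype and class cannot be told apart in them. HpoC lay above 3% like WT, with l(2)gl at −1.04 and dlg1 at −0.82 on the log2 scale. No share of all genes is given beside the counts of these alternative models.

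The estimates ranged from small to large across the genes. In HpoC the median over the 10 was a log2 fold change of 0.22, with Nrg at −0.028 and dlg1 at 1.46. In Fd5-5 dlg1 was at 442 and 458 CPM against 79.8 and 71.7 CPM in WT, a log2 fold change of 2.56 ± 1.22 (SE; edgeR adjusted p = 0.163). The groups do not overlap, but WT lay above 3% rRNA and Fd5-5 below. In HpoC dlg1 was at 461 and 459 CPM in replicates 1 and 2, and at 42.9, 42.5 and 44.3 CPM in replicates 3 to 5, on either side of WT.

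In delta D only scrib was called, and higher, beside 26.5% of all genes called and 11.2% called higher. It was at 938, 802 and 837 CPM against 148 and 138 CPM in WT, a log2 fold change of 2.58 ± 0.93 (edgeR adjusted p = 0.0489). These groups also lie on different sides of 3%, and the call was lost when any 1 of the 5 libraries was left out. Other models called more: 6 of the 10 in DESeq2's Wald test, 9 with only the groups compared and 3 with the replicate number as a block. No share of all genes is given beside these counts.

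Within the 6000 libraries, 9 of the 10 genes were called in each of delta A, delta B, delta C and delta F, and they were the same 9: sinu was the exception, kune rose and the others fell. The share of all genes called was 58.4% in delta A, 32.2% in delta B, 65.8% in delta C and 56.7% in delta F, and the share called lower was 28.1%, 12.8%, 32% and 28.5%. All but delta B 4 of these libraries lay above 3% and all WT libraries of the 6000 below. In delta E, with 3 of 4 libraries below 3%, none of the 10 was called beside 5.13% of all genes (1 had an unadjusted p under 0.05, and DESeq2's Wald test called 0).

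In each of these 4 mutants l(2)gl, dlg1 and scrib had the largest estimates of the 10 in size. In delta C scrib was at 54.8, 51.9 and 58.1 CPM against 669, 725 and 747 CPM in WT, a log2 fold change of −3.73 ± 0.70 (edgeR adjusted p = 0.000361). There l(2)gl was at 66.1, 75.9 and 86.3 CPM against 615, 704 and 804 CPM in WT, a log2 fold change of −3.24 ± 0.50. In delta F dlg1 was at 44.0, 47.98 and 45.1 CPM against 425, 421 and 495 CPM in WT, a log2 fold change of −3.36 ± 0.79 (edgeR adjusted p = 0.00348).

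The calls of delta B were lost or kept depending on which library was left out. Its replicates 1 to 3 had 50.8, 49.5 and 49.5 CPM of dlg1 and replicate 4 had 365 CPM. Without delta B 4 the count stayed at 9, without WT replicate 1 it was 1, and it was 0 without WT replicate 2, WT replicate 3 or any one of delta B 1 to 3.

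With the rRNA class as a term beside genotype, most of these calls were lost and many estimates changed sign. On the X Plus 8 of the 10 estimates turned in Fd5-5 and in HpoC, 9 in HpoN+PH and in PCP and 5 in delta D, and 9 of 10 were then negative in HpoC, HpoN+PH and PCP. The estimate of l(2)gl went from a log2 fold change of 1.44 to −0.52 in Fd5-5 and from 0.93 to −0.78 in HpoN+PH. On the 6000, 5 turned in delta A, 4 in delta B, 2 in delta E and only sinu in delta C and in delta F. None of the 10 genes was called in Fd5-5 (3.64% of all genes), HpoN+PH (6.53%), PCP (3.69%), delta D (7.69%), delta A (4.22%), delta B (0.106%), delta E (9.36%) or delta F (0.281%). Unadjusted p was under 0.05 for 7 genes in HpoN+PH, 6 in PCP, 3 each in Fd5-5 and delta A, 1 each in delta D, delta E and delta F, and 0 in delta B. In HpoC 3 were lower, beside 12.3% of all genes called and 6.29% called lower: dlg1 by a log2 fold change of −0.71 ± 0.20, scrib by −0.74 ± 0.18 and Nrx-IV by −0.61 ± 0.14. In delta C 3 were lower, beside 13% of all genes called and 7.3% called lower: l(2)gl by −1.32 ± 0.20, cora by −1.37 ± 0.26 and Nrx-IV by −1.09 ± 0.22. The term has only 2 levels, and shares differed inside a class. Above 3%, WT of the X Plus had 17.1% to 17.4% rRNA, HpoC 8.88% to 11.7% and delta C 5.11% to 8.04%. Fd5-5, delta D, delta A, delta C and delta F share no class with WT of their sequencer. Their estimates rest on the class difference within other labels. The part of the share inside a class was not tested.

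**Figure D2:**
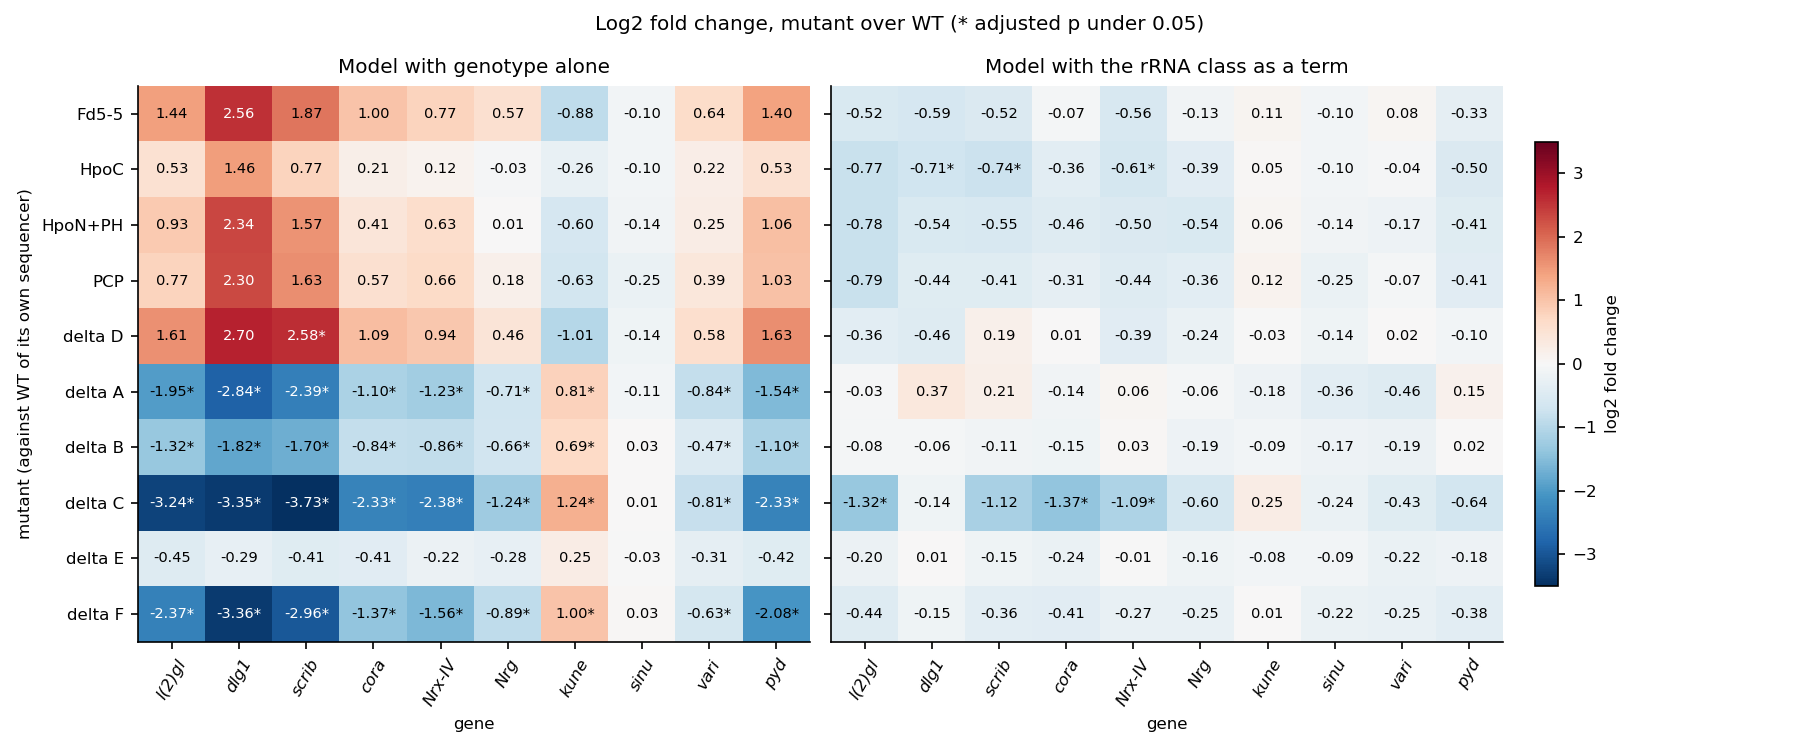
Log2 fold change of each gene (columns) in each mutant against WT of its own sequencer (rows), from a model with genotype alone (left) and with the rRNA class added (right); asterisks mark adjusted p under 0.05. On the left most genes have opposite signs in the upper and lower blocks, sinu and Nrg of HpoC being exceptions, with dlg1 at 2.56 in Fd5-5 and −3.36 in delta F, and on the right the same cells hold −0.59 and −0.15.

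The class term itself compares libraries that carry the same genotype label. On the X Plus it is informed by HpoC, HpoN+PH and PCP, and on the 6000 by delta B and delta E, so the libraries of the sequencers are separate. It called 9 of the 10 genes on each machine, beside 66.9% of all genes on the X Plus and 56.4% on the 6000, and 8 of the 9 were lower above 3%, as were 32.9% and 27.5% of all genes. The log2 difference, above minus below 3%, was −3.16 ± 0.16 for dlg1 on the X Plus and −3.21 ± 0.12 on the 6000 (edgeR adjusted p = 2.46e-11 and 3.25e-12). For scrib it was −2.39 ± 0.13 and −2.60 ± 0.27, and for l(2)gl −1.96 ± 0.21 and −1.92 ± 0.15. By mean chi-square between counts, HpoC 1 and 2 lay nearest to Fd5-5 2 and 1, and PCP 5 to WT 1 of the X Plus. HpoN+PH 1 lay nearest to delta F 3, delta B 4 to WT 1 of the 6000 and delta E 4 to delta F 2. Nearest libraries of another label also occurred elsewhere, as for HpoN+PH 3 and PCP 1. Whether the libraries of the split labels carry the genotype named was not tested.

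The remaining genes kept their order. The log2 differences on the X Plus and the 6000 were −1.73 and −1.69 for pyd, −1.34 and −1.29 for Nrx-IV, −1.07 and −0.96 for cora, −0.70 and −0.64 for Nrg and −0.56 and −0.38 for vari. For kune they were 0.98 and 0.99. For sinu the values were −0.00011 ± 0.061 and 0.25 ± 0.11, neither called (edgeR adjusted p = 0.999 and 0.0740). Across the 10 genes the estimates of the sequencers had a Pearson correlation of 0.997, a description over genes that share libraries.

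The WT libraries, which carry one label on both machines, showed the same directions. WT of the 6000, below 3%, was higher than WT of the X Plus by a log2 fold change of 2.32 ± 0.86 for scrib and 0.66 ± 0.20 for vari, the 2 genes called, beside 24.7% of all genes called and 11% called higher. DESeq2's Wald test called 6, and leaving out 1 library in edgeR gave 0 or 1 call, both without a share of all genes beside them. Sequencer and rRNA class cannot be told apart in this comparison.

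The size of the class difference followed transcript length. Over the 10 genes, the mean log2 level below minus above 3% had a Pearson correlation of 0.858 and a Spearman correlation of 0.733 with the log2 length of the longest transcript, given as a description. The same held broadly for all genes: the median difference was −0.63 for genes of up to 987 bases and 1.10 for genes of 3619 bases or more. Within that longest bin dlg1, with a difference of 3.14, lay at percentile 98.1, scrib with 2.62 at 94.6 and l(2)gl with 2.11 at 86.4. Nrg, one of the longest at 7386 bases, had a difference of 0.76 and lay at percentile 35.

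**Figure D3:**
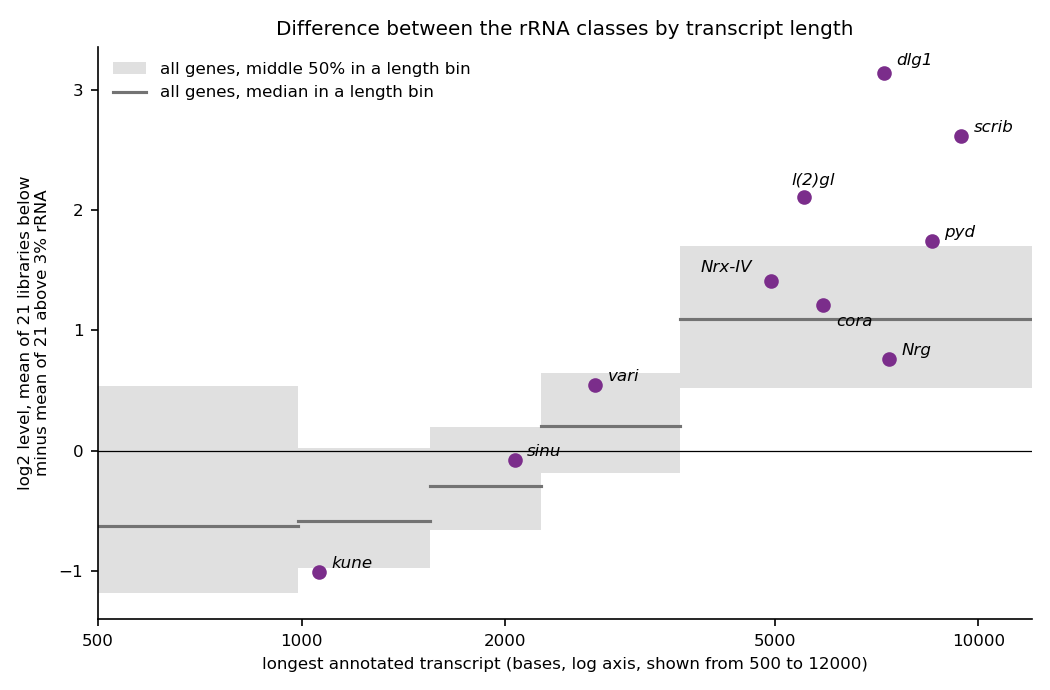
Mean log2 level in the 21 libraries below 3% rRNA minus that in the 21 above, against the longest annotated transcript (log axis), for the 10 genes (points) and for all genes in 5 bins of length (line, median; shade, middle 50%). The points rise from kune at −1.01 to dlg1 at 3.14, and dlg1, scrib, l(2)gl and pyd lie above the shade of the longest bin.

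With the trend of level on length removed from each library, 5 of the 10 genes were called in delta A (42.8% of all genes), 4 in delta B (24.7%), 9 in delta C (52.4%), 8 in delta F (44.6%) and 1 in delta E (6.9%). The scaffold genes l(2)gl, dlg1 and scrib were lower in delta A, delta B, delta C and delta F, by less than before: in delta C scrib went from −3.73 to −1.69 on the log2 scale, dlg1 from −3.35 to −1.50 and l(2)gl from −3.24 to −1.64. Nrg changed direction, with a log2 fold change of 0.60 in delta C and 0.62 in delta F, both called. In this model too, all libraries of delta A, delta B, delta C and delta F except delta B 4 lay above 3% rRNA and WT below. Genotype and class are therefore not separated by it.

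Inside the libraries above 3%, the levels of most of the genes moved with the rRNA share in the opposite sense to that between the classes. Libraries with 5.11% to 8.04% rRNA, those of delta C, had the lowest levels of l(2)gl, scrib, cora, Nrx-IV, Nrg and pyd of all 42, and the highest of kune. WT of the X Plus, with 17.1% to 17.4%, was at 267 to 283 CPM of l(2)gl against 66.1 to 86.3 CPM in delta C. The relation was examined after the values had been seen, so its p-values describe a pattern already noticed and are not independent support for it. Libraries of one label share a genotype, so the test was run on the means of the labels in a class (9 above 3% and 8 below), as 20 relations of 10 genes and 2 classes with exact permutation tests and adjustment over the 20. The permutation treats labels as exchangeable, though they differ in sequencer and in number of libraries.

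Above 3%, l(2)gl rose with the share over the label means with Pearson's r = 0.958 and Spearman's rho = 0.917 (n = 9, exact permutation p = 7.16e-05 and 0.00131, adjusted p = 0.000478 and 0.00525), and r was 0.899 without WT of the X Plus and delta C, the labels farthest from the median share. For scrib r was 0.957 and rho 0.95 (exact permutation p = 4.68e-05 and 0.000353, adjusted p = 0.000468 and 0.00353), and r was 0.922 without those labels. For dlg1 r was 0.879 and rho 0.75 (exact permutation p = 0.00237 and 0.0255, adjusted p = 0.00592 and 0.0463), and r was 0.965 without them. For kune r was −0.863 and rho −0.767 (exact permutation p = 0.00314 and 0.0214, adjusted p = 0.00697 and 0.0436), and r was −0.817 without them.

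Of the 10 genes 8 had an adjusted exact permutation p under 0.05 above 3%, by either correlation, the exceptions being sinu with r = −0.133 and vari with r = −0.00899. This test was run on the 10 genes only, so its counts in either class have no share of all genes beside them. The 10 genes also share the same labels. Over the 21 single libraries, given as a description, the same 8 had a correlation of at least 0.5 in size, beside 40.9% of all genes. Below 3%, where the share ran only from 0.792% to 1.68%, 4 had an adjusted p under 0.05 by Pearson and 3 by Spearman, and sinu had the highest r, 0.938 with rho = 0.905 (n = 8, exact permutation p = 0.00129 and 0.00456, adjusted p = 0.00368 and 0.013), with r = 0.686 without delta B and PCP. There 5 of the 10 had a correlation of at least 0.5 in size over single libraries, beside 20.6% of all genes. Share and genotype cannot be told apart in these relations.

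**Figure D4:**
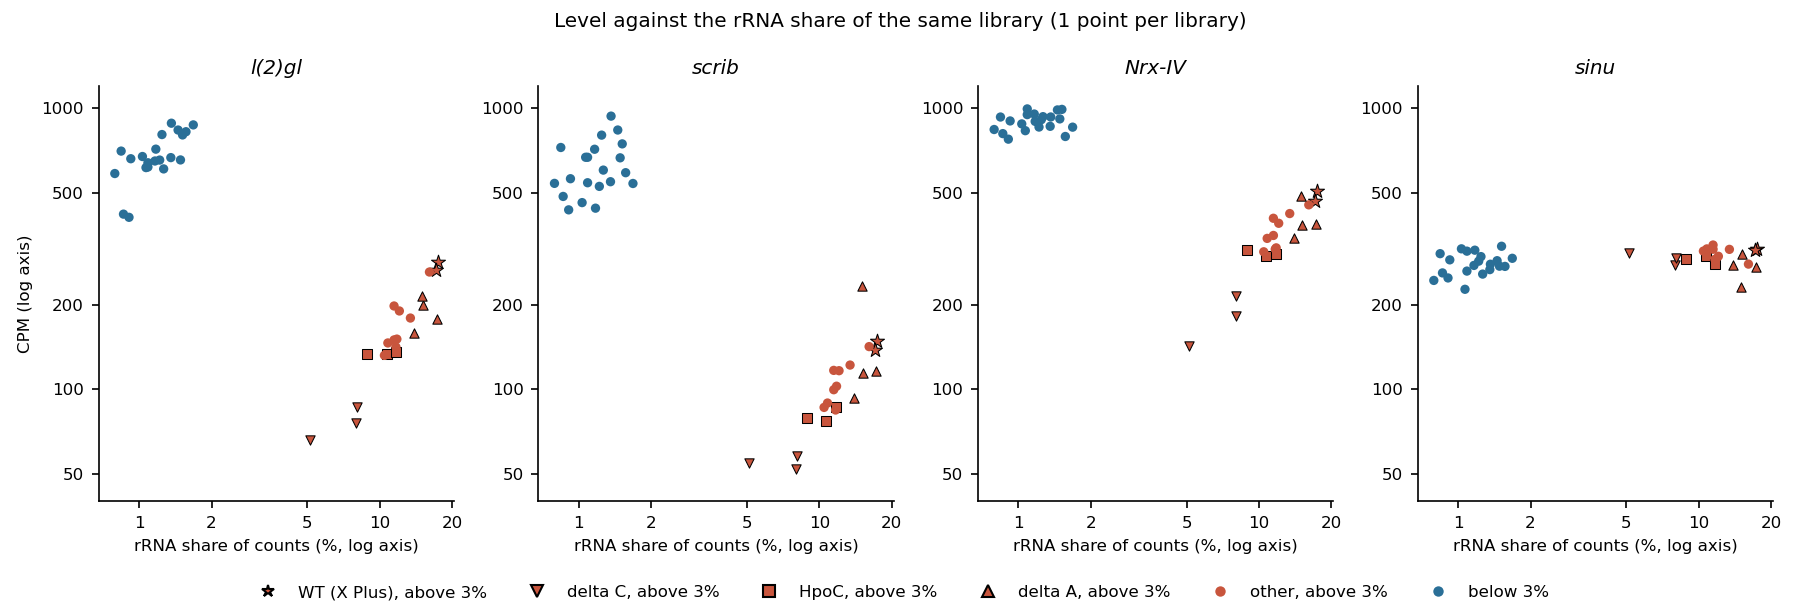
Level (CPM, log axis) of l(2)gl, scrib, Nrx-IV and sinu against the rRNA share of the same library (log axis), 1 point per library, red above and blue below 3%. Among the red points l(2)gl climbs from 66.1 CPM at 5.11% to 283 CPM at 17.4%, yet all red points lie under the blue ones, while sinu stays between 227 and 326 CPM.

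Comparisons inside 1 class on 1 sequencer could be made for HpoC and delta E with 3 libraries each. In HpoC 3 to 5 against WT of the X Plus, all above 3%, 7 of the 10 genes fell, beside 46.4% of all genes called and 21.8% called lower. The level of l(2)gl was 134, 135 and 133 CPM against 283 and 267 CPM in WT, a log2 fold change of −0.997 ± 0.066 (edgeR adjusted p = 9.86e-06). The groups do not overlap, and neither do their rRNA shares, 8.88% to 11.7% in HpoC and 17.1% to 17.4% in WT. The 4 muscle markers summed to 44.6 to 90.1 CPM in HpoC 3 to 5 against 518 to 970 CPM in WT. The 4 salivary gland markers summed to 1.66 to 4.77 against 29.2 to 78.1 CPM. Wing disc markers were lower too, at 1002 to 1096 against 1150 to 1216 CPM. So were fat body markers, at 0.6205 to 1.017 against 10.28 to 15.15 CPM. Glia markers were higher, at 11.24 to 16.55 against 8.149 to 8.232 CPM. So were those of neurons (37.47 to 43.55 against 24.56 to 27.67 CPM) and hemocytes (24.51 to 33.42 against 18.9 to 20.96). The other sums overlapped, and the part of these tissues in the falls was not tested.

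The other falls in HpoC 3 to 5 were smaller. On the log2 scale scrib changed by −0.79 ± 0.074, dlg1 by −0.77 ± 0.071, Nrx-IV by −0.64 ± 0.070, pyd by −0.57 ± 0.078, Nrg by −0.50 ± 0.069 and cora by −0.41 ± 0.080. The values of vari (−0.060), sinu (−0.082) and kune (0.12) did not pass. The same 7 genes were called with any 1 of the 5 libraries left out. The model held only X Plus libraries above 3%, with HpoN+PH and PCP at 1 library each, so its spread rests on few libraries. In the model of all libraries above 3%, which joins the sequencers, the SE was 0.13 for l(2)gl and 0.27 for scrib. There the edgeR adjusted p was 0.000124 for l(2)gl, 0.0412 for scrib and 0.0383 for pyd, and cora was not called.

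In delta E 1 to 3 against WT of the 6000, all below 3%, none of the 10 genes was called, beside 14.4% of all genes, and 2 had an unadjusted p under 0.05. The level of l(2)gl was 618, 649 and 655 CPM against 615, 704 and 804 CPM in WT, and dlg1 was at 474, 473 and 467 CPM against 425, 421 and 495 CPM. The groups overlap in both genes. The log2 fold changes of the 10 genes ran from −0.23 for vari to 0.059 for dlg1, and the count was 0 with any 1 of the 6 libraries left out. The rRNA shares overlapped, 1.09% to 1.49% in delta E and 0.842% to 1.52% in WT. Fat body markers summed to 83.25 to 257.9 CPM in delta E 1 to 3 against 6.42 to 14.9 CPM in WT. Muscle markers summed to 30.6 to 99.6 against 11.4 to 24.1 CPM, and glia markers to 13.2 to 15.3 against 20.1 to 26.3 CPM. Wing disc markers summed to 2221 to 2472 against 1664 to 2194 CPM. The other marker sums overlapped, and the part of these tissues was not tested.

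Single libraries gave mixed values. PCP 5, with 16.1% rRNA, had l(2)gl at 261 CPM and scrib at 142 CPM, next to WT of the X Plus, and 0 of the 10 genes were called, beside 2.2% of all genes (0 with an unadjusted p under 0.05). HpoN+PH 1, with 11.7%, had l(2)gl at 141 CPM and scrib at 84.3 CPM, and 7 genes were called lower, beside 35.5% of all genes called and 15.2% called lower. That count fell to 2 in the model of all libraries above 3%, which joins the sequencers. Delta B 4, with 0.792%, was set against WT of the 6000, and 0 of the 10 genes and 0 of all genes were called (3 of the 10 had an unadjusted p under 0.05). In each of these a lone library is assumed to vary like the other groups.

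Across sequencers but inside 1 class, delta C differed most from WT. Against WT of the X Plus, 7 genes fell and kune rose in delta C, beside 41.4% of all genes called and 20.3% called lower. On the log2 scale l(2)gl changed by −1.82 ± 0.13, Nrx-IV by −1.41 ± 0.16, scrib by −1.34 ± 0.27, cora by −1.29 ± 0.20 and kune by 0.39 ± 0.12 (edgeR adjusted p = 3.93e-07, 1.33e-05, 0.00115, 0.000145 and 0.0185). The rRNA share of delta C, 5.11% to 8.04%, was the lowest above 3%, and sequencer and genotype cannot be told apart here. The mitochondrial share was 2.28% to 2.73% in delta C and 1.98% to 2.03% in WT, and the muscle markers summed to 47.9 to 315 CPM against 518 to 970 CPM. Lower too were the sums of wing disc (680 to 946 against 1150 to 1216 CPM) and trachea markers (16.6 to 20.3 against 22.7 to 26.1). So were those of salivary gland (2.57 to 7.92 against 29.2 to 78.1 CPM) and fat body (1.05 to 1.44 against 10.3 to 15.2). Glia markers were higher (8.57 to 14.9 against 8.15 to 8.23 CPM), and the other sums overlapped. Their part in the change was not tested. Of delta A, with 13.9% to 17.2% rRNA and muscle markers of 264 to 459 CPM, only l(2)gl was called, at −0.51, beside 10.9% of all genes called and 4.79% called lower.

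The other mutants gave fewer calls in such fits. Above 3% against WT of the X Plus, 4 of the 10 genes were called lower in delta F (27.9% of all genes called, 12.8% lower) and 2 in delta B (32.9% and 16%). There were 6 in HpoC 3 to 5 (28.8% and 13.4%), 2 in HpoN+PH 1 (15.4% and 6.15%), 2 in delta E 4 (12.3% and 4.78%) and 0 in PCP 5 (0% of all genes). The genes l(2)gl and dlg1 were among the calls in each of these 5 mutants with any. All were set against the same WT libraries, with 17.1% to 17.4% rRNA, and all had lower shares. These were 8.88% to 11.7% in HpoC, 10.5% to 11.8% in delta F and 11.5% to 13.4% in delta B. HpoN+PH 1 had 11.7% and delta E 4 10.8%, against 16.1% in PCP 5. Share and genotype cannot be told apart here. Below 3% against WT of the 6000, 4 were called lower in PCP 1 to 4 (19.7% of all genes called, 10.6% lower), 3 in HpoN+PH 2 to 4 (18.3% and 11.4%) and 1 in HpoC 1 and 2 (3.23% and 1.32%), with scrib in each, at −0.48, −0.42 and −0.54. In the same fit 0 were called in Fd5-5 (3.62%), delta D (0%), delta B 4 (0.0177%) and delta E 1 to 3 (12.7%), with an unadjusted p under 0.05 for 1 gene each in Fd5-5 and delta D and for 2 each in the others.

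**Figure D5:**
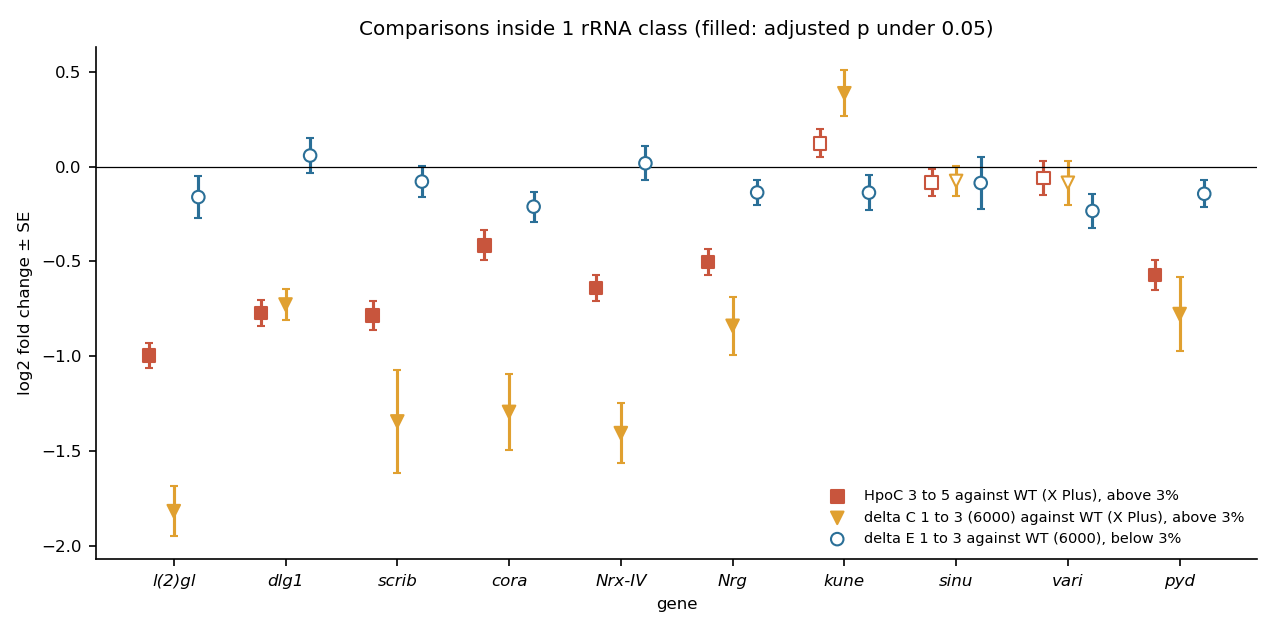
Log2 fold change (± SE) of each gene in 3 comparisons inside 1 rRNA class; filled symbols have an adjusted p under 0.05. HpoC 3 to 5 and delta C lie below 0 for l(2)gl (−0.997 and −1.82) and for 8 further genes, of which 6 were called in each, whereas no gene of delta E 1 to 3 was called.

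Further septate junction genes did not share one direction between the classes. Of 20 such genes, among them Cont, Mcr and Atpalpha, the class term called 9 higher and 9 lower above 3% on the X Plus, beside 66.9% of all genes called and 32.9% called lower. On the 6000 it called 9 higher and 8 lower, beside 56.4% called and 27.5% called lower. The median was 0.083 on the X Plus and 0.14 on the 6000, beside −0.0072 and 0.046 over all genes. Of 8 partners of the basolateral scaffold, among them the spectrins and the kinase gene par-1, 6 were called lower and 2 higher on both machines, with medians of −1.89 and −1.57. Of 7 adherens junction genes 5 were lower and 0 higher on both, among them shg, which encodes E-cadherin, with medians of −1.29 and −0.94. The sets were counted, not tested as sets.

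With the class as a term, delta C had calls in each set, beside 13% of all genes called and 7.3% called lower. Of the 20 septate junction genes 4 were lower and 0 higher, with Cont, which encodes Contactin, at −1.12 and Mcr, a complement-related septate junction component, at −1.40 (edgeR adjusted p = 0.00196 and 0.00502). Of the 8 partners 4 were lower and 0 higher, with beta-Spec at −1.40, and of the 7 adherens junction genes 2 were lower and 0 higher, cno at −1.02 and shg at −0.72. In HpoC, beside 12.3% of all genes called and 6.29% called lower, 3 of the 20 were lower and 0 higher, with Mcr at −0.69, yrt at −0.43 and Atpalpha at −0.29. Of the partners 2 were lower and 1 higher, and of the adherens junction genes 4 were lower and 2 higher, among them Vinc, which encodes Vinculin, by 1.36 (edgeR adjusted p = 5.72e-05).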

How the data were processed

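Libraries were made from 10 ng of total RNA with 12 to 15 PCR cycles and read in pairs of 150 bases, per the labels' protocols. The deposited values are estimated counts per gene, not normalized by the authors. FastQC 0.10, Trimmomatic 0.33, Salmon 1.80, edgeR and the build dm6 are named in the submitters' processing notes, which give no roles here. The estimated counts were rounded to whole numbers; 18.6% to 33.4% of a library's values were not whole as deposited. PCR copies cannot be told from independent molecules.

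Genes were tested with edgeR 4.0.16 in R 4.3.3 (quasi-likelihood F test, TMM scaling, filterByExpr) in 1 model per sequencer, with 10775 genes on the X Plus and 10338 on the 6000, 15 residual degrees of freedom in either, and a biological coefficient of variation of 49.2% and 39.4%. WT was compared across sequencers in 1 model of all 42 libraries (11294 genes). P-values were adjusted over all genes of a model. Levels are CPM with the TMM factors of all 42 libraries. The rRNA class (above or below 3% of counts on symbols containing rRNA) was used as a term, and models of 1 class held 11055 genes above and 11304 below; HpoC 3 to 5 and delta E 1 to 3 were also tested within their sequencer. The models across sequencers inside 1 class, the sets of libraries left out because they stand apart, and the relation of levels with the rRNA share were chosen after the data had been seen. That relation was tested over the means of the labels in each class with exact permutations. Other alternatives were DESeq2 1.42.0 (size factors and Wald test), rRNA genes left out, no low-count filter, only the groups compared, a loess of level on transcript length (span 0.3), the replicate number as a block, and each replicate left out. Scripts were tested on simulated data.

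Replicate numbers did not pair libraries: the mean residual correlation was −0.022 for same numbers and 0.0029 for different ones, and 0 of 21 pairs of groups were paired. No library duplicated another within counting noise. The named genes are ft, all 10 genes of the set in every comparison, and up to 3 genes of smallest p per further list. The members and lists were chosen with earlier results of these data known.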

Additional observations from a re-analysis of the deposited data

Results flagged for a closer look

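In groups of 4 or 5 libraries, 23 of 60 combinations of gene and group had 1 library far from the rest (Dixon's criterion, which chance meets in about 1 in 20). The genes share these libraries, so the combinations are not independent, and the criterion was not applied to all genes. All but that of delta A replicate 4 fell on the lone library of the other rRNA class in its label. In HpoN+PH replicate 1, the library above 3% rRNA, the values were 141 CPM for l(2)gl, 41.9 for dlg1, 84.3 for scrib, 309 for cora, 353 for Nrg, 219 for kune and 147 for pyd. In delta E replicate 4, also the library above 3%, they were 146 CPM for l(2)gl, 42.6 for dlg1, 89.3 for scrib, 332 for cora, 344 for Nrx-IV, 361 for Nrg, 223 for kune and 146 for pyd. In delta B replicate 4, the library below 3%, they were 586 CPM for l(2)gl, 365 for dlg1, 540 for scrib, 669 for cora, 840 for Nrx-IV and 528 for pyd. PCP replicate 5, above 3%, stood apart with 154 CPM of vari. Delta A replicate 4 stood apart within its class, with 233 CPM of scrib against 92.8 to 116 CPM in its other 3 replicates.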

How the results depend on the processing

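DESeq2 size factors and leaving out rRNA genes moved no count of called genes by over 1.5 times. When the rRNA class was added to the model, 3 of the 10 genes were called in HpoC and delta C and 0 in delta A, delta B, delta D and delta F; l(2)gl, dlg1, scrib, cora, Nrx-IV, vari and pyd turned negative in HpoC (−0.77, −0.71, −0.74, −0.36, −0.61, −0.040 and −0.50; dlg1, scrib and Nrx-IV called), 8 of the 10 turned in Fd5-5, 9 each in HpoN+PH and PCP and 5 in delta D, none called, and dlg1, scrib, Nrx-IV and pyd turned positive (0.37, 0.21, 0.063 and 0.15) and kune negative (−0.18) in delta A, and Nrx-IV and pyd positive (0.028 and 0.021) and kune negative (−0.088) in delta B. With the class of WT alone, 7 were called in HpoC, 7 in HpoN+PH and 0 in delta B. There HpoC had l(2)gl −0.997, dlg1 −0.77, scrib −0.79, cora −0.41, Nrx-IV −0.64 and pyd −0.57, and HpoN+PH had l(2)gl −0.92, dlg1 −0.81, scrib −0.72, cora −0.41, Nrx-IV −0.59, Nrg −0.52 and pyd −0.48.

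Without the 6 or 8 libraries that stand apart, 9 were called in Fd5-5, PCP and delta D, 8 in HpoN+PH and 7 in HpoC, where the values turned to l(2)gl −1.04 and −1.03, dlg1 −0.82 and −0.80, scrib −0.83 and −0.82, cora −0.46 and −0.45, Nrx-IV −0.69 and −0.67, and pyd −0.62 and −0.61. Fd5-5, PCP, delta D and HpoN+PH then lay wholly below 3% rRNA and WT above, so genotype and class cannot be told apart in them. In 1 class above 3%, 6 were called in HpoC, 2 in HpoN+PH, 1 in delta A, 2 in delta B, 2 in delta E and 4 in delta F. Reversed values were l(2)gl −0.999, dlg1 −0.77, scrib −0.79, Nrx-IV −0.64 and pyd −0.57 in HpoC, l(2)gl −0.94 and dlg1 −0.84 in HpoN+PH, scrib 0.014, kune −0.025 and pyd 0.031 in delta A, and vari 0.18 in delta B and 0.13 in delta F. In 1 class below 3%, 1 was called in HpoC (scrib −0.54), 3 in HpoN+PH (scrib −0.42, cora −0.37 and vari −0.34), 4 in PCP (l(2)gl −0.45, scrib −0.48, cora −0.31 and pyd −0.31) and 0 in delta B and delta D. Without the length trend 5 were called in delta A, 4 in delta B and 1 in delta E, and Nrg turned positive in delta A (0.41), delta B (0.35), delta C (0.60) and delta F (0.62).

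With only the groups compared, 9 were called in Fd5-5 and delta D and 0 in delta B. With no filter on low counts, 0 were called in delta D, 5 in delta B and 1 between the WT sets. DESeq2's Wald test called 6 in delta D and 6 between the WT sets. With the replicate block 3 were called in delta D and 6 in delta B, and no other count moved by over 1.5 times. Leaving out 1 library gave 0 to 0 in Fd5-5, HpoC, HpoN+PH, PCP, delta D, delta E and delta E 1 to 3, 8 to 9 in delta A, 0 to 9 in delta B, 9 to 9 in delta C, delta F and the class term of the X Plus, 7 to 9 for that of the 6000, 0 to 1 between the WT sets, 7 to 7 in HpoC 3 to 5 and 7 to 8 in delta C against WT of the X Plus. The cause of these changes was not tested. A p that misses the threshold does not show equal levels.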
